A study of Sus scrofa with 12 samples.

Results

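Drug-eluting coronary stents, taken as one class, were compared with bare metal stents (BMS) in coronary arteries of pigs, Yorkshire farm animals, 28 days after the stents were placed by angioplasty. The drug-eluting side held 8 artery segments, 4 around sirolimus-eluting stents (SES) from 2 pigs and 4 around zotarolimus-eluting stents (ZES) from another 2 pigs. The bare metal side held 4 segments from 2 further pigs, so the comparison used all 12 segments and all 6 animals of the series. A gene was taken as shared by both drug-eluting stents where the means of the 4 drug-eluting pigs all lay on one side of the bare metal mean. Among 5793 named genes, 1212 (20.9%) met this rule on the higher side and 1119 (19.3%) on the lower side, and 13 of the higher genes also passed the test across all probe sets.

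Each pig carried one kind of stent and gave 2 segments. Segments 1 and 2 of a stent type came from one pig and segments 3 and 4 from the other. They were taken from the right coronary (RCA) and left anterior descending (LAD) arteries, except SES 1, which came from the LCX, the left circumflex artery. The title of the series describes the stents as overlapping. No unstented artery, drug dose, polymer or metal platform is given in the sources used here, so what a drug-eluting stent differs in from a bare metal one cannot be divided between drug and coating. Tissue was dissected by hand from around each stent, so each value is an average over all the cells of the wall. In such bulk tissue fewer cells of a type and less RNA per cell cannot be told apart.

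Sirolimus is a macrolide that binds the immunophilin FKBP1A, and the complex blocks the mTOR kinase, a regulator of translation, cell growth and entry into the cell cycle. Zotarolimus is a sirolimus analog in which a tetrazole replaces one hydroxyl, and it acts on the same target. On a stent both drugs are used to limit the growth of smooth muscle cells into the lumen, and both also restrain T cell proliferation and the regrowth of endothelium. A bare metal stent exposes the wall to the same stretch injury and foreign body without a drug.

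Values are log2 signals of the Affymetrix porcine array, on which 1 unit is a doubling. The differences below are fitted log2 differences, the mean of SES and ZES minus BMS, from limma with the pig as a random block. They are given with their standard errors, and the adjusted p is Benjamini-Hochberg over all 16799 probe sets tested. A call means an adjusted p under 0.05. The background level of an array is the 95th percentile of its 59 blank control probe sets, and a signal under it is not well above background.

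In the pooled comparison 20 probe sets were called higher, which is 0.119% of the 16799 tested, and 0 were called lower. Among the lower probe sets the smallest adjusted p by limma was 0.0912. Without adjustment, 1109 probe sets (6.60%) had a higher and 952 (5.67%) a lower signal at a p under 0.05. Of the 20, 16 have a single gene symbol and name 13 genes, which is 0.224% of the 5793 named genes tested, and 4 have none. All 20 of these probe sets met the rule on pig means, beside 20.3% of all probe sets on the higher side and 20.5% on the lower side. In 12 of the 20 the 8 drug-eluting arrays did not overlap the 4 bare metal arrays, beside 0.566% of all probe sets on the higher side and 0.643% on the lower. The same held for 6 of the 13 genes, beside 0.604% of the named genes on the higher side and 0.38% on the lower. Both counts come from the same 12 arrays as the calls and follow from them, so they describe the called genes and lend the calls no support.

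The number of calls rested on single arrays. It was 0 without SES 1, SES 3, ZES 1 or ZES 3, 1 without SES 2, 5 without BMS 1 and 13 without BMS 2. It was 73 without BMS 4, 57 without SES 4 and 45 without ZES 4. That no probe set was called lower also depended on the arrays used: 21 were called lower without SES 4, 6 without BMS 4, 4 without ZES 4, 2 without ZES 2 and 1 without BMS 2. Without both arrays of a pig, 30 were called lower for BMS 3 and 4, beside 196 higher, 28 for ZES 3 and 4, beside 52 higher, 5 for SES 3 and 4, beside 1 higher, and 1 for BMS 1 and 2, beside 37 higher. Means per pig, 4 values against 2, gave 4 calls, of which 1 was among the 20. The sign of the difference of each of the 13 genes was positive in all 428 values computed for them under other settings. These settings reuse the arrays that gave the calls, so the shared sign lends the calls no support.

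CD3E, a signalling chain of the T cell receptor complex, had signals of 3.39, 2.19, 0.50 and 4.83 on BMS 1 to 4. None of them was above background, as was so for 1.36% of the probe sets tested. Probe sets of lowest mean had been left out before testing, so this share does not show how rare such signals are. On the SES arrays CD3E stood at 7.66, 7.24, 7.72 and 7.87, and on the ZES arrays at 6.97, 6.73, 7.54 and 5.60, all above background. The groups did not overlap. Fitted, the pooled difference was 4.44 ± 0.72 (adjusted p = 0.0282, limma). The mean of the drug-eluting arrays was 3.15-fold above the mean bare metal background level. CD3E on ZES 4 (5.60) lay under the background of BMS 1 (5.96).

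LOC100621559 is listed without a descriptive name. In RefSeq's order of genes on Sscrofa11.1 it lies between EPHB6 and a gene annotated as a C_region, with PRSS2 and V_segment genes just beyond. In mammals these neighbours mark the T cell receptor beta locus, but RefSeq labels the gene itself only as protein coding. Its probe set with the highest mean read 6.20, 6.65, 9.04 and 8.32 on the BMS arrays. The same probe set read 11.08, 10.45, 11.63 and 10.14 with SES and 11.18, 9.66, 10.73 and 9.50 with ZES. Every drug-eluting array lay above every bare metal array, and the difference was 2.99 ± 0.50 (adjusted p = 0.0282, limma). All 8 measured probe sets of the gene were higher with both stents, by 1.06 to 3.44, and 4 of them were called; probe sets of one gene share their target and are not independent.

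LTB, lymphotoxin beta, a membrane cytokine of lymphocytes that organises lymphoid tissue, had signals of 6.05, 6.23, 4.70 and 6.17 on the BMS arrays. With SES it read 8.08, 8.34, 9.60 and 10.09, and with ZES 9.07, 7.39, 7.85 and 7.35. The groups were apart on every array, with a difference of 2.68 ± 0.50 (adjusted p = 0.0456, limma).

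BTG2, an antiproliferative gene induced by growth signals and by p53, had signals of 3.39, 1.24, 2.5 and 3.94 on the BMS arrays, where none was above background. It read 7.83, 8.09, 7.78 and 5.88 with SES and 5.21, 6.58, 5.77 and 6.18 with ZES, above background on all 8. Again no array overlapped. The mean of the drug-eluting arrays was 2.22-fold above the mean bare metal background level, and the fitted difference was 3.89 ± 0.69 (adjusted p = 0.036, limma). Background ran from 5.27 to 5.96 on the bare metal arrays and from 4.15 to 5.39 on the drug-eluting arrays. BTG2 on ZES 1 (5.21) lay under the background of every bare metal array.

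CCL2, a chemokine that attracts monocytes, had the smallest p among named genes with a single probe set. It stood at 10.80, 11.78, 11.81 and 11.54 on the BMS arrays, 13.80, 14.02, 13.88 and 13.19 with SES and 12.82, 12.25, 12.83 and 12.07 with ZES. The 3 stents formed steps without overlap, bare metal lowest and sirolimus highest. The pooled difference was 1.63 ± 0.26, or 3.09-fold (adjusted p = 0.0282, limma). CCL5, which attracts T cells and monocytes, read 7.48, 8.86, 8.95 and 9.01 with BMS, 11.47, 12.77, 12.38 and 11.19 with SES and 10.51, 9.10, 9.70 and 8.71 with ZES. Its ZES arrays overlapped the bare metal ones, and the pooled difference of 2.16 ± 0.40 passed the test (adjusted p = 0.0425, limma).

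UBD, a ubiquitin-like modifier induced by interferon gamma and tumour necrosis factor, had signals of 8.62, 8.79, 9.16 and 11.45 on the BMS arrays. With SES it read 13.03, 12.49, 13.20 and 11.62 and with ZES 12.26, 11.36, 11.93 and 11.44. Only BMS 4 reached the drug-eluting range, and the difference was 2.66 ± 0.44 (adjusted p = 0.0282, limma). CFP, properdin, which stabilises the alternative complement convertase, read 6.35 to 7.32 with BMS, 9.50 to 10.03 with SES and 7.05 to 8.43 with ZES, a difference of 2.02 ± 0.36 (adjusted p = 0.036, limma).

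STIM2, a calcium sensor of the endoplasmic reticulum, was nearly as high with zotarolimus as with sirolimus. It read 7.07, 7.07, 6.66 and 7.26 with BMS, 9.41, 9.33, 9.03 and 8.78 with SES and 9.52, 9.50, 8.72 and 7.88 with ZES. The groups did not overlap, and the difference was 2.0 ± 0.36, or 4.01-fold (adjusted p = 0.0387, limma).

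PDPN, podoplanin, a surface glycoprotein of lymphatic endothelium and of activated stromal cells, read 6.55, 6.59, 7.77 and 8.61 with BMS. It read 10.22, 8.56, 9.38 and 9.65 with SES and 10.28, 9.64, 9.70 and 9.38 with ZES. It was the single called gene whose fitted difference was larger for ZES than for SES, and its pooled difference was 2.22 ± 0.42 (adjusted p = 0.0472, limma). BMS 4 overlapped SES 2.

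The other 3 called genes were IER3, TSPAN13 and C17H8orf4. IER3, an immediate early gene that modulates cell survival, ranged from 5.75 to 8.24 with BMS, 9.76 to 12.12 with SES and 7.91 to 9.83 with ZES. TSPAN13, a tetraspanin, ranged from 9.23 to 10.97, 11.95 to 12.59 and 10.39 to 11.79 in the same order. C17H8orf4, the pig counterpart of human C8orf4, ranged from 6.81 to 9.84, 11.20 to 12.08 and 9.37 to 10.09. In all 3 the SES arrays were clear of the bare metal arrays and the ZES arrays overlapped them. Their pooled differences were 2.78 for IER3, 1.83 for TSPAN13 and 2.54 for C17H8orf4. The 4 called probe sets without a symbol were higher by 1.72 to 4.59.

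**Figure D1:**
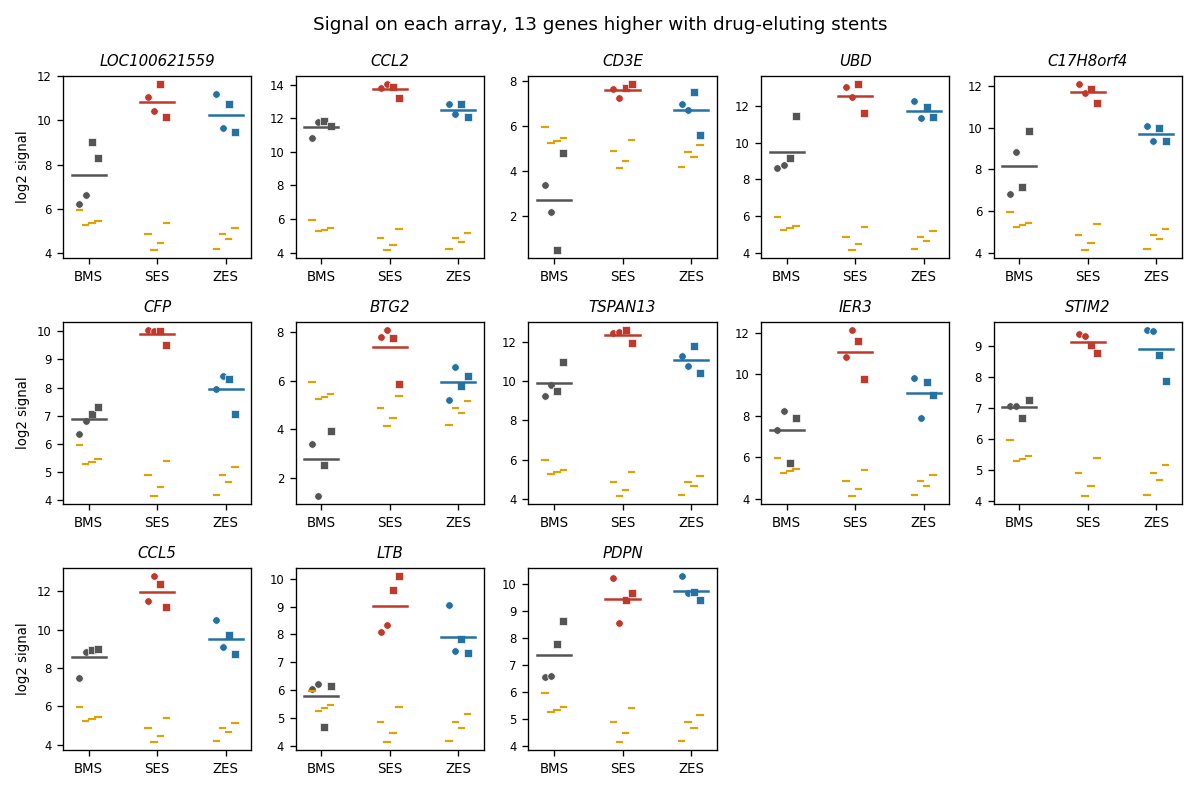
Log2 signal (y axis) of the 13 called genes on each array, by stent (x axis). Circles are segments 1 and 2 and squares segments 3 and 4 of a stent type, which come from different pigs; thick bars are group means and the short yellow bars are each array's background level. CD3E and BTG2 lie under the yellow bars on all 4 BMS arrays and above them on all 8 others.

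Each stent was then set against bare metal on its own scale. Over the 13 genes the SES minus BMS difference ranged from 2.07 to 4.90 with a median of 3.24, and the ZES minus BMS difference from 0.93 to 3.98 with a median of 1.89. Both use the same 4 bare metal arrays, and the 13 genes were called on the mean of both differences. Their size and shared sign therefore follow in part from the calls and lend them no support. The direct comparison of the drugs, SES minus ZES, called 12 probe sets (0.0714%), none of them among the 20, whose adjusted p lay between 0.0544 and 0.965. The SES minus ZES difference was positive for 12 of the 13 genes. For 7 its unadjusted 95% interval contained 0, as for CD3E (0.92, from -0.83 to 2.67), STIM2 (0.23, from -0.65 to 1.12) and PDPN (-0.30, from -1.31 to 0.72). For the other 6 it lay above 0, as for CCL5 (2.45, from 1.48 to 3.42), CFP (1.95, from 1.08 to 2.82) and C17H8orf4 (1.99, from 0.91 to 3.07). Where an interval contained 0, a difference as large as its ends was not excluded by these arrays. Taken alone, the ZES minus BMS comparison called 0 probe sets by limma, and the SES minus BMS comparison called 114 (0.679%).

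**Figure D2:**
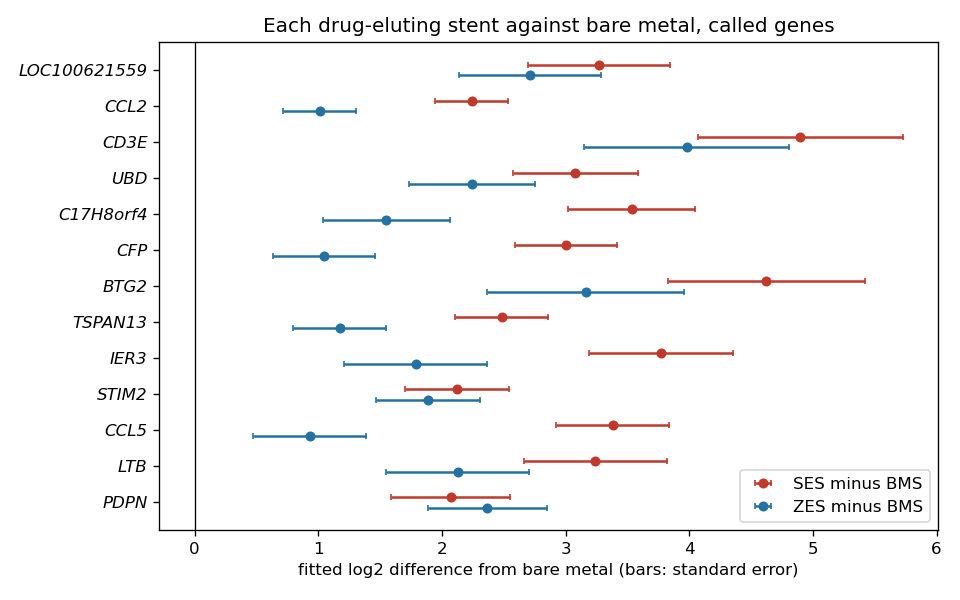
Fitted log2 difference from bare metal (x axis) of each called gene (y axis) for SES (red) and ZES (blue); bars are standard errors. All 26 points lie to the right of 0, the ZES points between 0.93 and 3.98 and the SES points between 2.07 and 4.90. The genes were called on the mean of both differences, so this side follows in part from the calls.

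S100A8, a calcium-binding protein of neutrophils and inflammatory monocytes, is the marker gene given for this comparison that did not pass. It was above background on 1 BMS array only. It read 1.92, 3.75, 4.71 and 7.74 on the BMS arrays, 11.34, 12.35, 8.91 and 6.35 with SES and 11.77, 3.97, 11.39 and 11.56 with ZES. ZES 2 lay among the bare metal arrays and BMS 4 above SES 4. The pooled difference was 5.17 ± 1.37 (adjusted p = 0.15, limma), 5.20 for SES and 5.14 for ZES. CD3E and BTG2, the other markers, are described above. All 3 met the rule on pig means.

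Gene lists by function are described by counts and medians, beside those of all 5793 named genes, for which the median difference was 0.01, 20.9% were higher and 19.3% lower by the rule on pig means. Apart from the 13 called genes, no gene named below passed the test. Leaving out 1 array moved the differences of 27 of the other 97 named genes by over 1.5 times or turned their sign, and of 0 of the 13 called genes. The 13 were called on these same arrays, so this contrast follows from the calls and lends them no support. Some of the 97 differences lay near 0, where small changes exceed 1.5 times, as for FKBP5 (-0.01) and IL1B (0.02).

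Of 12 measured T and NK cell markers, the median difference was 0.98, 8 were higher and 1 lower by the rule, and CD3E was called. SH2D1A, an adaptor of lymphocyte signalling, was above background on 1 BMS array, 4 SES arrays and 3 ZES arrays, with a difference of 2.63 ± 0.65 (adjusted p = 0.123, limma). IL7R, the receptor for a T cell survival cytokine, was above background on 2 BMS arrays, with a difference of 3.60 ± 0.91. It read 5.97, 2.19, 0.86 and 7.23 with BMS, 6.96 to 8.57 with SES and 6.42 to 8.61 with ZES, so that BMS 4 overlapped both. CD3G, another T cell receptor chain, was above background on 1 BMS array and differed by 1.65 ± 0.57. CD69, an early activation marker, and CD2, an adhesion molecule of T cells, had the list's 2 negative differences, -1.18 ± 0.72 and -0.36 ± 0.45, and both are named after their values were seen. The mean signal over the list lay between 4.79 and 5.65 on the BMS arrays, 6.39 and 7.46 with SES and 5.64 and 6.65 with ZES, where ZES 4 lay just inside the bare metal range.

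Neutrophil markers had the highest list median, 1.58 over 8 measured genes, with 5 higher and 1 lower. The calgranulins S100A9 and S100A12 differed by 2.75 ± 0.95 (1.83 without BMS 2) and 3.18 ± 1.12, and NCF1, a subunit of the NADPH oxidase, by 1.10 ± 0.37. MMP9, a gelatinase stored in neutrophil granules, read 8.50 to 11.88 with BMS, 10.82 to 12.46 with SES and 8.89 to 14.42 with ZES, a difference of 2.05 ± 0.76. TREM1, a receptor that amplifies neutrophil and monocyte activation, was the lower one at -2.33 ± 0.82, named after its values were seen. On ZES 2 the mean of the neutrophil list was 6.71, within the bare metal range of 6.64 to 7.87, while on the other 3 ZES arrays it lay between 8.69 and 9.39.

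Markers of other leukocytes were mixed. The 17 monocyte, macrophage and dendritic markers had a median of -0.35, with 3 higher and 8 lower. Of the 17, 10 had a negative difference, the lowest being -1.73. MRC1, the mannose receptor, CD14, the lipopolysaccharide co-receptor, and CD163, the haemoglobin scavenger receptor, differed by 1.84, 0.96 and 0.74, the last becoming 0.38 without BMS 1. FCER1G, an Fc receptor chain, differed by -0.82 (-0.53 without BMS 3). Of the 6 B and plasma cell markers, 3 were higher and 0 lower with a median of 0.48, and JCHAIN, which links polymeric antibodies, differed by 1.25 ± 0.61, which became 0.57 without BMS 1. Only 2 eosinophil and mast cell markers were measured, and they had opposite signs. MS4A2, a chain of the mast cell IgE receptor, differed by 2.28 ± 0.80 and KIT, the stem cell factor receptor, by -0.65 ± 0.98; KIT is named after its values were seen. MS4A2 became 1.13 without BMS 4 and KIT -0.028 without BMS 1, and the median of the pair, 0.82, became -0.56 without the pig of BMS 3 and 4. Of the 7 platelet and red cell markers, 1 was higher and 1 lower by the rule, with a median of 0.72 (SES 1.65, ZES -0.24). That median became negative with the spike-in or the GAPDH covariate. HBB, haemoglobin beta, a sign of blood in the tissue, had the highest difference of that list, 1.07 ± 0.40. The part of cell mixture in the differences was not tested.

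Cytokines and chemokines, 31 measured, had a median of 0.78, with 14 higher, 4 lower and 3 called. CCL24, which attracts eosinophils and T cells, read 9.17 to 11.46 with BMS, 12.73 to 14.21 with SES and 9.52 to 12.80 with ZES, a difference of 2.07 ± 0.51 (adjusted p = 0.124, limma). CXCL13, the B cell chemokine, failed the rule: it read 4.77 to 8.07 with BMS, 10.34 to 12.26 with SES and 4.36 to 7.07 with ZES. Its SES minus ZES difference of 5.13 passed the test between the drugs (adjusted p = 0.00712, limma). IL1B and CXCL8, an inflammatory cytokine and a neutrophil chemokine, also failed it. On its brightest probe set IL1B differed by 2.18 for SES and -2.15 for ZES (adjusted p = 0.066 between the drugs, limma). Its other probe set had a pooled difference of 2.27 ± 1.21, from means of 5.24 (BMS), 9.73 (SES) and 5.28 (ZES). The lower IL1B signal for ZES was thus seen on 1 of its 2 probe sets. CXCL8 differed by 3.36 for SES and -0.34 for ZES (adjusted p = 0.349 between the drugs, limma). Its pooled difference was 1.51, but 0.60 without BMS 3.

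Among 14 cytokine and chemokine receptors, 6 were higher and 1 lower, with a median of 0.61. IL2RA, the high-affinity chain of the interleukin 2 receptor, was above background on 0 of 4 BMS arrays and 3 of 4 arrays of each drug. Its fitted difference was 2.73 ± 0.82, but its drug-eluting mean was only 1.06-fold above the mean bare metal background level. The shared gamma chain IL2RG, which several interleukin receptors use, differed by 1.48 ± 0.37, and it read 7.54 to 9.20 with BMS, 9.34 to 10.65 with SES and 8.74 to 10.12 with ZES. CXCR6, a receptor of effector T cells, differed by 2.2 ± 0.94 and IL1R1, the interleukin 1 receptor, by 2.06 ± 0.87, which became 1.24 without BMS 3. CXCR6 was above background on 1 BMS array and IL1R1 on 2. With the level of the spike-in controls as a covariate the median of this list became -0.38.

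Leukocyte adhesion genes, 11 measured, had a median of 0.80, with 6 higher and 1 lower. ICAM1, an endothelial ligand of leukocyte integrins, read 7.23 to 9.29 with BMS, 10.10 to 11.29 with SES and 8.09 to 10.96 with ZES, a difference of 2.02 ± 0.48 (adjusted p = 0.113, limma). ITGB2, the beta chain of those integrins, differed by 2.68 ± 0.71 (1.72 without BMS 2) and VCAM1, another endothelial ligand, by 0.80 ± 0.33. The sign of VCAM1 turned, to -0.34, with the spike-in covariate. CD99, a junction protein used in transmigration, was the lower one at -0.75 ± 0.25.

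Genes of MHC class II and antigen presentation, 22 measured, were higher in 12 and lower in 1, with a median of 0.48. SLA-DRB1, SLA-DQA1 and SLA-DQB1, swine class II chains, differed by 1.51 ± 0.35, 1.21 ± 0.34 and 1.48 ± 0.43, the last becoming 0.92 without BMS 2. For these 3 the SES difference was 2.15, 1.83 and 2.13, and the ZES difference 0.88, 0.60 and 0.82. B2M, the class I light chain, was the lower one at -0.78 ± 0.25 on its brightest probe set, while 3 of its other 8 probe sets were higher by 0.11 to 0.87. Its sign turned with quantile normalization (0.02) and with the spike-in covariate (0.06).

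Interferon response genes went mostly the other way: of 24 measured, 13 were lower and 4 higher, with a median of -0.62. XAF1, a proapoptotic interferon target, had the smallest p of any lower probe set. It read 11.21, 11.52, 11.12 and 9.81 with BMS, 9.26, 8.39, 8.87 and 9.91 with SES and 9.21, 9.92, 9.73 and 9.11 with ZES. Only BMS 4 reached into the drug-eluting range, and the difference was -1.62 ± 0.35 (adjusted p = 0.0912, limma). OAS1, an antiviral synthetase, had no overlap between the sides: 10.10 to 11.59 with BMS, 8.73 to 9.96 with SES and 8.28 to 10.06 with ZES, a difference of -1.21 ± 0.38. IFIT1 and IFIT2, antiviral RNA-binding proteins, differed by -1.23 ± 0.38 and -1.34 ± 0.40. Under the alternative settings OAS1 ranged from -1.46 to -0.039, IFIT1 from -1.60 to -0.0039 and IFIT2 from -1.99 to -0.39. XAF1 ranged from -2.07 to -1.17 and the list median from -0.93 to -0.14. GBP1 and IRF1, which respond strongly to interferon gamma, stood on the higher side at 1.12 ± 0.40 and 1.01 ± 0.43; both are named after their values were seen. IRF1 differed by 0.52 without BMS 2 and by -0.06 without the pig of BMS 1 and 2.

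**Figure D3:**
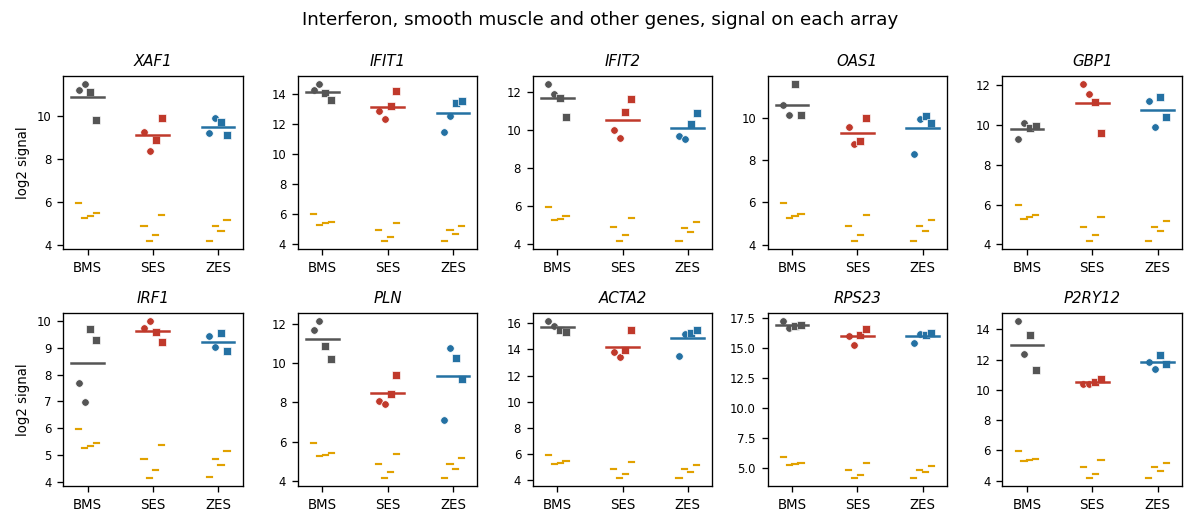
Log2 signal (y axis) of interferon response genes (XAF1, IFIT1, IFIT2, OAS1, GBP1, IRF1) and of PLN, ACTA2, RPS23 and P2RY12 on each array, by stent (x axis), drawn as in the plot of the called genes. The 4 BMS arrays of OAS1 lie between 10.10 and 11.59, above all 8 drug-eluting arrays, while ACTA2 on SES 4 and on 3 ZES arrays lies close to the bare metal values.

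Immediate early and stress genes, 31 measured, were higher in 9 and lower in 0 by the rule, with a median of 0.48 that was 1.10 for SES and 0.02 for ZES. FOS, a component of the AP-1 transcription factor, read 6.37, 6.77, 4.18 and 7.85 with BMS, 11.15, 12.36, 10.71 and 9.49 with SES and 9.45, 6.35, 9.22 and 7.44 with ZES. ZES 2 and ZES 4 lay within the bare metal range, and the difference was 3.23 ± 0.68 (adjusted p = 0.077, limma). NFKBIA, the inhibitor of NF-kappaB, and DNAJB1, a heat shock co-chaperone, differed by 1.03 ± 0.27 and 1.25 ± 0.37.

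Growth arrest and cell cycle genes did not share one direction. Of 20 growth arrest and apoptosis genes 4 were higher and 6 lower, with a median of 0.15 whose sign 3 of the alternative settings turned. BTG2 was the one called. CDKN2B, a cyclin-dependent kinase inhibitor, was above background on all 4 BMS arrays, 1 SES array and 3 ZES arrays, with a difference of -2.42 ± 0.85. BCL2L1, which blocks apoptosis, had no overlap between the sides and differed by -2.03 ± 0.65, and CASP1, the inflammasome protease, by -1.30 ± 0.36. CDKN1A, another inhibitor, differed by 0.41 ± 0.39.

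Of 28 cell cycle and proliferation genes 14 were higher and 1 lower, with a median of 0.46. CCNB2, a mitotic cyclin, read 1.12, 4.36, 8.66 and 7.64 with BMS, 6.17 to 8.85 with SES and 7.68 to 9.35 with ZES, a difference of 2.76 that became 1.24 without BMS 1. The low bare metal values were both from the pig of BMS 1 and 2, and both lay under background. CENPF, a kinetochore protein, had the same pattern, at 0.67 and 3.12 in that pig and 8.03 and 8.52 in the other. Its difference of 2.78 ± 1.18 became -0.41 without the first pig, and the list median became -0.09. RRM2, a subunit of ribonucleotide reductase, differed by 1.72 ± 0.71 (0.94 without BMS 2), and PCNA, the sliding clamp of replication, by 0.19 ± 0.30.

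Genes of the drugs' own pathway split nearly evenly. Over 29 measured genes of sirolimus targets and the mTOR pathway the median was -0.01, with 7 higher (24.1%) and 6 lower (20.7%), near the shares of all genes, and 14 of the alternative settings turned the sign of that median. FKBP1A, the receptor of both drugs, read 11.99 to 12.63 with BMS, 12.44 to 13.26 with SES and 11.98 to 12.61 with ZES, and its difference of 0.30 ± 0.23 (95% interval -0.19 to 0.79) failed the rule. FKBP1B, a close paralog that also binds sirolimus and regulates calcium release channels, read 7.05, 6.98, 7.44 and 8.52 with BMS. It read 10.29, 8.24, 9.61 and 8.53 with SES and 9.49, 9.37, 8.37 and 8.47 with ZES, so that BMS 4 overlapped both. Its difference was 1.55 ± 0.44 (adjusted p = 0.174, limma), 1.67 for SES and 1.43 for ZES. FKBP14, an immunophilin of the endoplasmic reticulum, differed by 0.73 ± 0.35 and FKBP5, a steroid receptor co-chaperone, by -0.01 ± 0.24.

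All 57 measured genes of cytosolic ribosomal proteins had a negative difference, and 44 were lower by the rule, with a median of -0.49 (SES -0.49, ZES -0.49). RPS23 read 16.62 to 17.22 with BMS, 15.25 to 16.57 with SES and 15.36 to 16.24 with ZES, without overlap, a difference of -0.93 ± 0.25. RPS21 differed by -0.78 ± 0.24 and RPS6, whose protein is phosphorylated downstream of mTOR, by -0.61 ± 0.23. With quantile normalization the list median became 0.01 and with the spike-in covariate 0.25, and RPS6 became 0.05 and 0.17. With median centring the list median was -0.32, and 30 of the 32 alternative settings left it negative.

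Smooth muscle contractile genes had the lowest list median, -1.05 over 29 measured genes, of which 26 had a negative difference. By the rule 10 were lower and 2 higher. The median was -1.52 for SES and -0.20 for ZES, and -0.09 with the spike-in covariate. The mean signal over the list was 9.27, 9.51 and 9.60 on SES 1 to 3 and 9.89 on ZES 1, under every bare metal array, which read 11.58, 11.76 and 11.11 on BMS 1 to 3 and lowest on BMS 4. SES 4, at 11.21, and ZES 2 to 4, at 11.68, 11.50 and 11.36, lay within the bare metal range. PLN, phospholamban, a regulator of the calcium pump, read 11.65, 12.14, 10.85 and 10.19 with BMS, 8.07, 7.93, 8.42 and 9.42 with SES and 7.09, 10.78, 10.27 and 9.18 with ZES, a difference of -2.31 ± 0.55 (adjusted p = 0.115, limma). ACTA2, smooth muscle actin, read 15.31 to 16.17 with BMS, 13.44 to 15.44 with SES and 13.50 to 15.51 with ZES, a difference of -1.17 ± 0.38 that became 0.14 with the spike-in covariate. ITGA8, an integrin chain of contractile cells, differed by -1.13 ± 0.38 and TAGLN, an actin-binding protein, by -1.23 ± 0.54. CNN1, calponin, failed the rule, at -3.15 for SES and -0.20 for ZES.

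Heart muscle can be carried along when an epicardial artery is dissected. The mean of 13 cardiomyocyte markers ranged from 5.99 to 8.42 with BMS, 5.83 to 9.19 with SES and 6.46 to 8.80 with ZES, and was highest on SES 4. Its median difference was -0.12, and the sign turned in 4 settings, among them median centring (0.06) and the spike-in covariate (2.0). PLN is also on that list. TTN, the giant sarcomere protein, differed by 2.68 ± 1.02 (1.62 without BMS 3) and TNNC1, cardiac troponin C, by -1.69 ± 0.85, so the list had no single direction; the part of heart muscle in the results was not tested.

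Endothelial markers, 20 measured, had a median of 0.27, with 7 higher and 3 lower. VWF, von Willebrand factor, was above background on 2 BMS, 3 SES and 4 ZES arrays. It read 3.14, 4.22, 6.24 and 5.46 with BMS, 7.97, 8.0, 7.19 and 3.72 with SES and 8.68, 9.35, 8.11 and 7.69 with ZES, a difference of 2.83 ± 0.77 (adjusted p = 0.165, limma). CDH5, the cadherin of endothelial junctions, read 2.91 to 6.07 with BMS, 6.25 to 7.15 with SES and 6.43 to 7.11 with ZES, without overlap, a difference of 1.87 ± 0.60 (1.19 without BMS 3). Its lowest bare metal value lay under the background of every array, so the difference partly measures signal under background. GJA4, a connexin of arterial endothelium, was lower: 7.36 to 9.29 with BMS, 5.16 to 6.0 with SES and 5.63 to 8.52 with ZES, a difference of -2.07 ± 0.53 (adjusted p = 0.133, limma). PECAM1 and NOS3, an endothelial adhesion molecule and nitric oxide synthase, differed by 0.31 ± 0.32 and 0.21 ± 0.56.

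Of 20 coagulation and fibrinolysis genes 8 were higher and 3 lower, with a median of 0.18. F3, tissue factor, which starts coagulation, read 2.24, 6.80, 1.91 and 7.27 with BMS, 10.59, 10.42, 8.89 and 7.36 with SES and 9.80, 7.95, 8.34 and 3.45 with ZES, a difference of 3.80 ± 1.13 (adjusted p = 0.191, limma) that became -0.11 with the spike-in covariate. On BMS 1 and BMS 3 the F3 signal lay under background. TFPI2, a protease inhibitor of the matrix and of coagulation factors, differed by 1.31 ± 0.40. P2RY12, the ADP receptor of platelets that is also found on smooth muscle, read 14.55, 12.36, 13.65 and 11.34 with BMS, 10.37, 10.36, 10.54 and 10.74 with SES and 11.84, 11.41, 12.29 and 11.70 with ZES. Its difference was -1.82 ± 0.42 (adjusted p = 0.103, limma).

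Matrix genes were mixed. TIMP1, an inhibitor of metalloproteases, read 12.52 to 13.15 with BMS, 13.91 to 14.45 with SES and 13.37 to 14.45 on 3 of the 4 ZES arrays, the other lying within the bare metal range, a difference of 1.14 ± 0.25 (adjusted p = 0.0998, limma). FN1, fibronectin, differed by 1.07 ± 0.35 on its brightest probe set and by -0.36 on its other one. COL5A3, a minor fibrillar collagen chain, differed by 1.65 ± 0.53 and COL3A1, a major one, by 0.45 ± 0.50 (0.027 without BMS 1). On the lower side were SPARC, a collagen-binding matricellular protein (-0.98 ± 0.24, but 0.03 with quantile normalization), VTN, vitronectin (-2.39 ± 0.83), A2M, a broad protease inhibitor (-1.82 ± 0.58), and HTRA1, a serine protease (-0.71 ± 0.26). COL4A2, a basement membrane collagen, met the rule at -1.14 ± 0.39, with -2.04 for SES and -0.23 for ZES. LAMB2, a laminin chain, failed it, at -2.43 for SES and 0.03 for ZES, and TNC, tenascin C, failed it at -2.55 and -0.20. The medians were 0.02 over 13 collagens, -0.19 over 35 proteoglycans and matrix glycoproteins and -0.07 over 31 proteases and inhibitors, and 10, 3 and 5 of the alternative settings turned their sign.

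Of 12 calcification and bone matrix genes 4 were lower and 1 higher, with a median of -0.84. MGP, matrix Gla protein, an inhibitor of calcification, differed by -0.96 ± 0.28 and CALCR, the calcitonin receptor of osteoclasts, by -2.38 ± 0.75. CTSK, an osteoclast protease, failed the rule at -1.17 for SES and -0.25 for ZES. SPP1, osteopontin, differed by 0.34 ± 0.54. Fibroblast and adventitial markers, 20 measured, had a median of -0.39 (0.16 with the spike-in covariate), with 3 higher and 8 lower. CLU, clusterin, differed by 1.10 ± 0.29, DPP4, a surface peptidase, by 1.83 ± 0.58 and VIM, vimentin, by -0.77 ± 0.25.

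Glycolysis and hypoxia genes, 27 measured, had a median of 0.31, with 10 higher and 5 lower. SLC2A1 and SLC2A3, glucose transporters, differed by 1.85 ± 0.49 and 1.89 ± 0.62. ENO1, enolase, read 12.69 to 13.15 with BMS and 13.19 to 14.07 on the drug-eluting arrays, without overlap, a difference of 0.64 ± 0.20. PFKM, the muscle form of phosphofructokinase, differed by -1.95 ± 0.68. The 58 oxidative phosphorylation genes had a median of -0.06 (0.11 with median centring), with 8 higher and 8 lower, and NDUFB1, a subunit of complex I, differed by -0.82 ± 0.23.

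**Figure D4:**
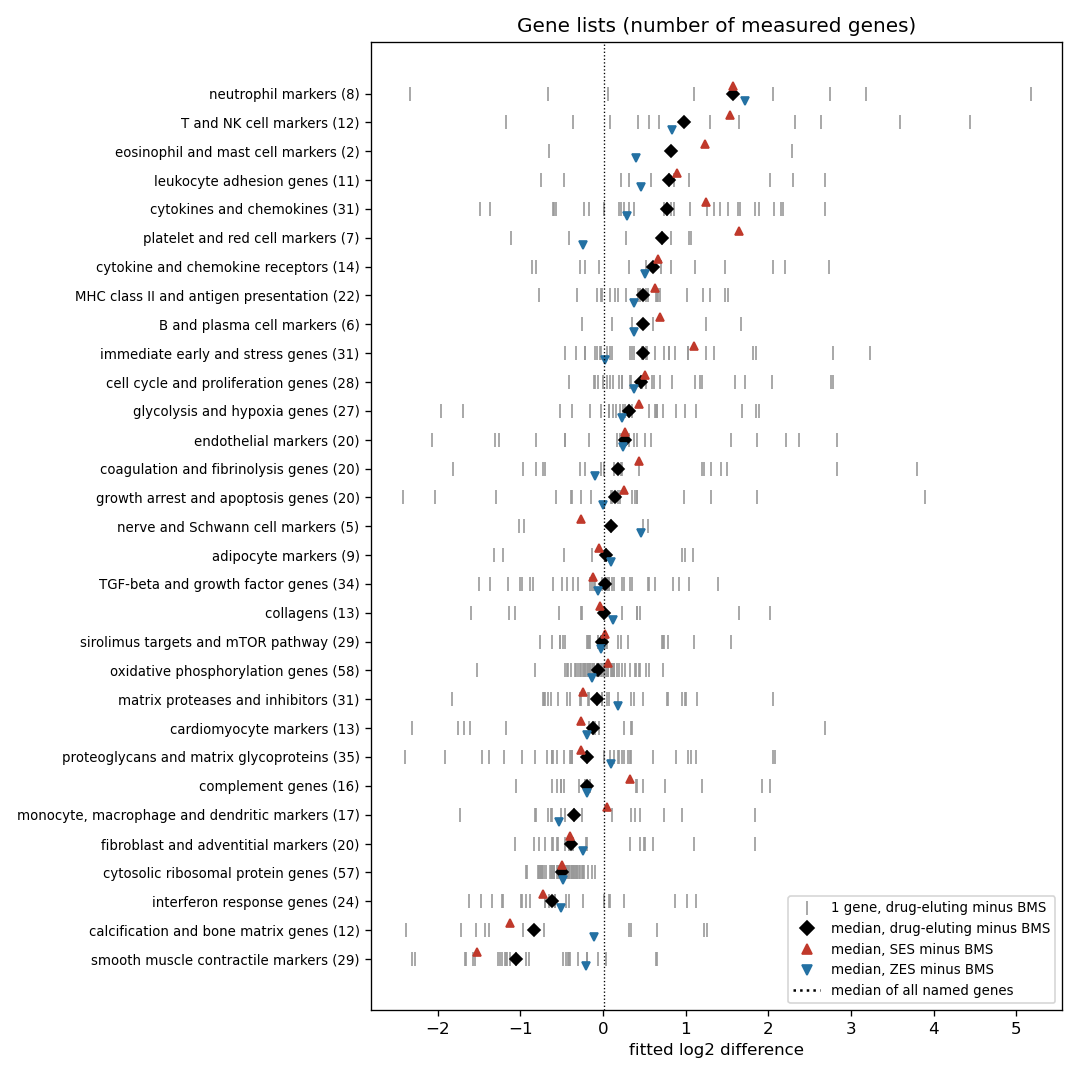
Fitted log2 differences (x axis) of the measured members of 31 gene lists (y axis, number of measured genes in brackets). Grey ticks are genes, diamonds list medians for the pooled comparison, and red and blue triangles the medians for SES and ZES against bare metal; the dotted line is the median of all named genes. List medians ran from -1.05 for smooth muscle contractile markers to 1.58 for neutrophil markers.

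The arrays themselves differed between the sides. The mean of the spike-in controls, control transcripts added to every hybridisation, was 15.3 ± 0.48 (SD, n = 8) on the drug-eluting and 16.5 ± 0.39 (SD, n = 4) on the bare metal arrays (exact permutation test over arrays, two-sided p = 0.00606, adjusted over 9 measures 0.0364). The GAPDH 3' minus 5' control signal, which grows as the labelled copies reach less far from the 3' end, was 3.19 ± 0.57 (SD, n = 8) against 4.16 ± 0.50 (SD, n = 4; exact permutation p = 0.0202, adjusted 0.0455). It ranged from 2.33 to 3.02 with SES, 3.44 to 3.91 with ZES and 3.64 to 4.63 with BMS. It thus also separated SES from ZES, and ZES overlapped BMS. With this control as a covariate, SES minus ZES called 0 probe sets. Background was 4.72 ± 0.44 (SD, n = 8) against 5.51 ± 0.31 (SD, n = 4; exact permutation p = 0.0121, adjusted 0.0364). A mean of 690 probe sets against 172 was listed at 0 (exact permutation p = 0.00808, adjusted 0.0364). Over means per pig none of these could pass, since 4 against 2 animals allow no exact p under 0.0667.

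These measures go with the stent groups. When either the spike-in level or the GAPDH control was added as a covariate, 0 of 16799 probe sets were called by limma, and 885 and 1139 had an unadjusted p under 0.05. The differences of the 13 genes stayed positive, from 0.94 to 4.54 with the spike-in level and from 1.11 to 6.42 with the GAPDH control. The part of these measures in the differences was not tested beyond these fits. Centring each array on its median changed the split of the rule on pig means from 3410 higher and 3440 lower to 4620 higher and 2260 lower probe sets, and moved the median of all named genes from 0.01 to 0.18.

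**Figure D5:**
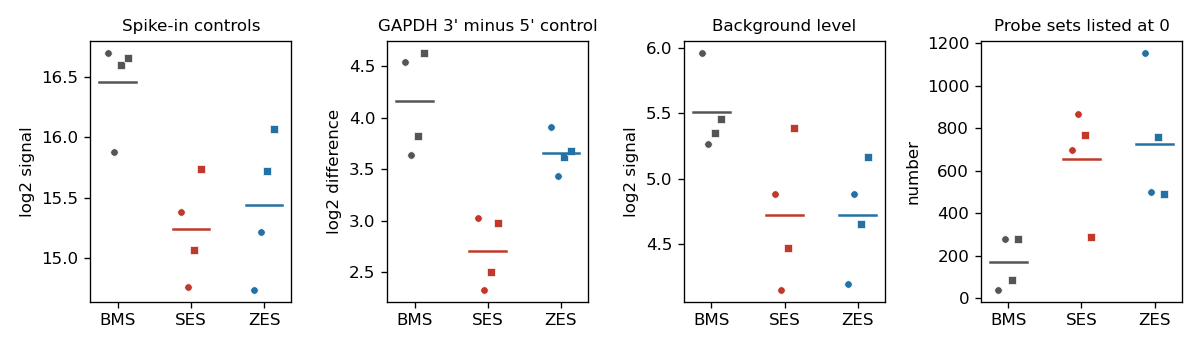
Measures of each array by stent (x axis): mean log2 signal of the spike-in controls, log2 difference of the GAPDH 3' and 5' controls, log2 background level and number of probe sets listed at 0 (y axes). Circles and squares are the 2 pigs of a stent type and bars are means. The BMS arrays are highest in the first 3 panels on average and lowest in the last, where they range from 41 to 280.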

How the data were processed

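RNA of 12 stented artery segments was hybridised to 1 array each. The deposited values are log2 signals of the authors; the submitters' processing notes name Affymetrix Expression Console (5.0) with MAS5. Target value, detection calls and handling of low signals are not stated there. The log base was read from the values, whose linear trimmed mean (2% off each end) is 500.15 to 500.17 on every array. A value of 0 marks a floor.

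After 124 control probe sets and the 30% of lowest mean were removed, 16799 of 24123 remained. Names came from the platform annotation, used where a probe set has 1 symbol (10069; 198 have several, 13732 none); 9989 were matched to RefSeq by Entrez ID and none had another symbol there. A gene is represented by its probe set of highest mean. No further normalization was applied.

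Tests used limma 3.58.1 (R 4.3.3, statmod 1.5.0): 3 stent types, contrast of the SES and ZES mean against BMS, pig as a random block (consensus correlation -0.0322), eBayes with trend, Benjamini-Hochberg at 0.05. Array measures were compared by exact permutation over 495 arrangements. As this correlation is slightly negative, the block did not widen the standard errors, and without it 17 probe sets were called in place of 20. With 2 pigs per stent, p-values measure mainly the spread between segments.

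The members, marker genes and 31 lists were chosen with earlier results of these data known. Named are the called genes, up to 4 genes of each list with the smallest p, and a fixed panel. Fits were tested on simulated arrays of 16799 probe sets for the pooled comparison: 6%, 52%, 70% and 80% of probe sets changed by 1, 2, 3 and 4 log2 units were recovered, 50 of each size, with 10 false calls among 114. The simulated arrays were drawn independently, with no pig effect, no floor and no difference in array measures between the sides. These rates therefore need not hold for the real arrays. Alternatives covered block, model, artery, trend, pseudocount, filter, scaling, weights, control covariates, threshold, and each array and pig left out. No sequences are shown.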

Additional observations from a re-analysis of the deposited data

Results flagged for a closer look

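In 354 groups of 4 arrays (110 named genes and 8 array measures, 3 stents each), 23 arrays stood apart from the other 3 of their group by Dixon's criterion, which chance alone gives in about 1 group in 20. SES 4 stood apart most often: low for CFP (9.50), BTG2 (5.88), RRM2 (6.04) and CENPF (6.28), and high for ITGA8 (12.02), LAMB2 (9.54), COL4A2 (11.48) and the median of the tested probe sets (7.80). Without SES 4 the number of calls was 57. ZES 2 stood apart low for S100A8 (3.97), CDKN1A (10.13), RRM2 (4.92), CLU (10.21) and PCNA (9.63). On the same 2 arrays the 28S control read 9.75 and 14.1.

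Among the other arrays, BMS 1 was low for CCL5 (7.48) and COL3A1 (4.92), BMS 2 for the spike-in level (15.88) and BMS 3 for LTB (4.70), while BMS 3 was high for FCER1G (13.07) and BMS 4 for SLC2A3 (10.81). SES 3 was low for CALCR (3.90). ZES 1 was high for TFPI2 (12.68) and low for ACTA2 (13.50), and ZES 4 was high for COL3A1 (7.05).

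CXCL13 differed between the drugs by 5.13 (SES minus ZES, adjusted p = 0.00712, limma), higher on all 4 SES arrays than on any ZES array.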

How the results depend on the processing

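The 20 calls became 4 with means per pig, 1 in a model of 2 levels, 11 with artery as a covariate, 2 without the variance trend, 37 without the filter, 35 with array weights, 0 with the spike-in or the GAPDH covariate, 1 without BMS 1 and ZES 2 (high 28S signal), 0 at a threshold of 0.01, and 0 to 73 without 1 array. Without the pig of BMS 1 and 2, BMS 3 and 4, SES 1 and 2, SES 3 and 4, ZES 1 and 2, or ZES 3 and 4 they became 38, 226, 0, 6, 1 and 80. The 12 calls of SES minus ZES became 6 without the pig block, 4 with means per pig, 26 with artery, 0 without trend, 48 with a pseudocount of 16, 48 without the filter, 6 with quantile normalization, 6 with median centring, 306 with array weights, 20 with the spike-in and 0 with the GAPDH covariate, 4 without the 28S arrays, 2 at 0.01, 0 to 158 without 1 array, and 47, 54, 1, 59, 11 and 43 without those pigs. The rule on pig means kept 4808 to 9348 probe sets, all within 1.5 times the 6850 reported. The differences of the array measures were examined in settings chosen after seeing the data: with means per pig they were the same (-1.12 for the spike-in level, -0.98 for GAPDH, -0.79 for background, 519 for probe sets at 0) with exact permutation p of 0.0667, 0.133, 0.0667 and 0.0667, and GAPDH was -1.15 to -0.82 without 1 array. Without 1 array the other 3 ranged from -1.32 to -1.04, -0.88 to -0.64 and 452.5 to 576. The 13 called genes kept their sign in 428 values and lost the call in 261. Of the other 97 named genes, 18 changed sign in 47 of 3205 values and 41 values gained a call. With the spike-in covariate these were ACTA2 (0.14), B2M (0.062), F3 (-0.11), FKBP5 (0.44), IL1B (-0.19), RPS6 (0.17), TNC (0.82), TNNC1 (0.056) and VCAM1 (-0.34). With quantile normalization they were B2M (0.021), RPS6 (0.047) and SPARC (0.034), and with median centring or array weights FKBP5 (0.163, 0.057). With GAPDH they were COL3A1 (-0.32), KIT (0.14), PCNA (-0.28) and FKBP5 (0.052), and without the 28S arrays PCNA (-0.017) and FKBP5 (0.070). Over all probe sets of the gene they were FKBP5 (0.63) and PECAM1 (-0.072). Without the pig of BMS 1 and 2 they were CENPF (-0.41), COL3A1 (-0.0029), IL1B (-1.30), IRF1 (-0.060), KIT (0.56) and PCNA (-0.16). Without the pig of SES 1 and 2 they were IL1B (-0.48) and FKBP5 (0.11), of SES 3 and 4 NOS3 (-0.0096), of ZES 1 and 2 FKBP5 (0.12), and of ZES 3 and 4 IL1B (-0.072). Without 1 array FKBP5 ranged from -0.098 to 0.063, IL1B from -0.688 to 0.724, PCNA from -0.135 to 0.363, NOS3 from -0.028 to 0.401 and SPP1 from -0.090 to 0.711. The cause of these changes was not tested. No paired analysis was possible because each pig carried 1 kind of stent and the labels give no shared replicate numbers. Signals under background limit CD3E, BTG2 and other low genes to bounds, and 2 pigs per stent limit every comparison.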
